A study of Homo sapiens with 2 samples.

Results

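The end of the long arm of chromosome 16 held 587 of the 53742 LDB1 peaks mapped in NB4 cells. They are the deposited peaks on chromosome 16 whose midpoint lay at or beyond 84.9 Mb (hg38), from ZDHHC7 past GSE1, IRF8, ZFPM1 and CBFA2T3 to the last annotated gene at 90222680. The peaks came from 1 CUT&Tag library made with an antibody against LDB1. In this assay an antibody brings the Tn5 transposase to chromatin, which cuts and tags the DNA around the bound protein. A second library was made with a non-specific IgG and is not analysed here. Both were from untreated NB4 cells, a line of human acute promyelocytic leukaemia with the PML::RARA fusion gene. Each antibody had 1 library, so no value has a replicate check and no test between samples was possible. Each peak has a position and a width and no height, so the depth is unknown, binding strength was not measured, and background in open chromatin cannot be told apart from LDB1 binding. The list holds no expression values, so the labelled cell type was not checked against marker genes.

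LDB1 is a nuclear adaptor that has no DNA-binding domain of its own. It dimerises and joins LIM-only, GATA and basic helix-loop-helix proteins that bind GATA and E-box sequences, and it is known for holding distant enhancers next to promoters in blood cells. The arm end encodes a partner of such complexes, ETO2 (the corepressor made by CBFA2T3). FOG1 (a GATA cofactor made by ZFPM1) and the myeloid factor IRF8 are encoded there as well. It also encodes GSE1, a protein found in complexes of the histone demethylase LSD1. The members were selected on the position of the peaks themselves, in a region picked with the peak counts of this list known, so the densities that follow describe it and carry no test.

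The DNA windows that carry these start sites are shown first, beginning with GSE1. Each runs from 250 bases before to 50 bases after a RefSeq start site (GRCh38.p14) and is written 5′ to 3′ on the strand of the gene. The windows of GSE1 (chr16:85613072-85613371, plus strand), LOC124903738 (chr16:85462619-85462918, minus strand, a long non-coding RNA inside GSE1), LOC105371409 (chr16:88925040-88925339, plus strand, a long non-coding RNA inside CBFA2T3), LOC105371411 (chr16:89063781-89064080, minus strand, between CBFA2T3 and ACSF3), LINC02138 (chr16:89166133-89166432, plus strand, beside CDH15) and ZNF276 (chr16:89720752-89721051, plus strand) are shown because they lay under the widest peaks that covered a start. Those of ZFPM1 (chr16:88453030-88453329, plus strand) and CBFA2T3 (chr16:88941301-88941600, minus strand) are shown for the genes of FOG1 and ETO2 and were added outside that rule. Capitals mark the GATA words AGATAA and also AGATAG, the forms TGATAA and also TGATAG, the E-box words CAGCTG and also CAGATG or the form CACCTG, the ETS word CCGGAAG, and the RUNX words TGTGGTT and also TGCGGTT. Each was searched on both strands, and where words overlap the capitals run together.
GSE1: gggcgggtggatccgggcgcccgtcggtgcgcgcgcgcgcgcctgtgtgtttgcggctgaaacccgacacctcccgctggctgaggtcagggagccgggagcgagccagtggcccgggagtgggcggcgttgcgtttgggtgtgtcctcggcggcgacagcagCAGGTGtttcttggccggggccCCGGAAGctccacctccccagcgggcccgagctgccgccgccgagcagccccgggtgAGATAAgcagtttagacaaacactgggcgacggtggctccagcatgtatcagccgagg
LOC124903738: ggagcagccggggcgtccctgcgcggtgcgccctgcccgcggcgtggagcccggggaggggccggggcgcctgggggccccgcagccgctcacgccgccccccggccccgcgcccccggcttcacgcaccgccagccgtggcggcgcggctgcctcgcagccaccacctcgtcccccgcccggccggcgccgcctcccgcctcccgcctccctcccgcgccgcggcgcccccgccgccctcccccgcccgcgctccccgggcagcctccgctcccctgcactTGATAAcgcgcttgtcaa
ZFPM1: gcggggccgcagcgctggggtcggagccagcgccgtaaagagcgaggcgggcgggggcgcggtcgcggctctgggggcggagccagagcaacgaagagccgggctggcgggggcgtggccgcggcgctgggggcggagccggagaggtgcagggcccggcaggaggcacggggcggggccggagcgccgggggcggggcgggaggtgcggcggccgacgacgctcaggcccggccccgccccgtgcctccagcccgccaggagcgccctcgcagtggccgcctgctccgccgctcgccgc
LOC105371409: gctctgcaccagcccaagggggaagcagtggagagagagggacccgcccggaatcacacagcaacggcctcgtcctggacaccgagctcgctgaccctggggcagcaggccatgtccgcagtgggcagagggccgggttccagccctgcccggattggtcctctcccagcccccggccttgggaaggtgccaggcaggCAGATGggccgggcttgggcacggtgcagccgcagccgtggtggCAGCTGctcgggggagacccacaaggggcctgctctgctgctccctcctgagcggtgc
CBFA2T3: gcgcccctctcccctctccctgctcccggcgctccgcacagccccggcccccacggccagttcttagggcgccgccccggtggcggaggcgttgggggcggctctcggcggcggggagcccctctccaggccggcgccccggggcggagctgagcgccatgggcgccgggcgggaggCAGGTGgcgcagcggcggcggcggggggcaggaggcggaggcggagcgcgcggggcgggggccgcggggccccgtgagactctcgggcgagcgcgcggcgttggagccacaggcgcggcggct
LOC105371411: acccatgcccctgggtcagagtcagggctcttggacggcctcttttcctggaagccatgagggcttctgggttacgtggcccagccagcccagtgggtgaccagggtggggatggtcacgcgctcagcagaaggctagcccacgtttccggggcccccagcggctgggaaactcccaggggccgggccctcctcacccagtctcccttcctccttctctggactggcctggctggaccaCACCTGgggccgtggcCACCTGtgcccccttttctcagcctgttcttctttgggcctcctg
LINC02138: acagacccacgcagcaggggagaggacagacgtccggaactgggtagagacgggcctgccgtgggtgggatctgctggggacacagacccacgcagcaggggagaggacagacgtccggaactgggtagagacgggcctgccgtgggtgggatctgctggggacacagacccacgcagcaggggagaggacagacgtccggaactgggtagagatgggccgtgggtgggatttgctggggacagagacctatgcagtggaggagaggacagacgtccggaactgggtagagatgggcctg
ZNF276: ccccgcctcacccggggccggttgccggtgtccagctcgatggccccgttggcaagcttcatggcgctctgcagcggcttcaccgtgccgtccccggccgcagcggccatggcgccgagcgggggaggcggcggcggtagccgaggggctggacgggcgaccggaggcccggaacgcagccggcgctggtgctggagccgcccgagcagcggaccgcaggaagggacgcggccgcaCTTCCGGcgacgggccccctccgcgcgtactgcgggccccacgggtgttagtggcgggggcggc

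The GSE1 window held 1 GATA word, 1 E-box word and 1 ETS word, and all 300 of its bases lay under a peak of 4586 bp. The ZFPM1 window held none of the words, and 154 of its bases lay under a peak of 409 bp. The CBFA2T3 window held 1 E-box word and lay under no peak. In the LINC02138 window, 82.7% of the 12-base words occurred more than once, which is visible as a repeated stretch. Such internally repeated windows, with at least 25% of words repeated, were 1 of the 35 windows under a peak at the arm end, 1 of the 108 without a peak and 0.772% of all windows in the genome. What reads that fit several copies of a repeat contributed to that peak, or to the widths of the other peaks at the arm end, was not tested.

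Peaks at the arm end were dense, wide and mostly inside gene bodies. The 5.32 Mb held 26.7% of the 2197 peaks of chromosome 16 on 5.90% of its length from first to last annotated gene. That is 110 peaks per Mb, against 19.0 per Mb on the rest of chromosome 16 and 17.3 per Mb on the rest of chromosomes 1 to 22 and X. Per protein-coding gene there were 8.63 peaks at the arm end, against 2.05 and 2.62. Peaks covered 10.8% of the sequence at the arm end, against 1.26% of the rest of chromosome 16 and 1.22% of the rest of the genome. The lengths elsewhere include long stretches without peaks, of up to 11013639 bp on the rest of chromosome 16. Such stretches lower the rates per Mb and the coverage there. The median distance between neighbouring peaks was 2242 bp at the arm end, against 7645 and 9762 bp. The last peak before the boundary was 765 bp wide with its midpoint 7.43 kb outside it, and the next inside was 1309 bp wide with its midpoint 22.6 kb past it.

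**Figure D1:**
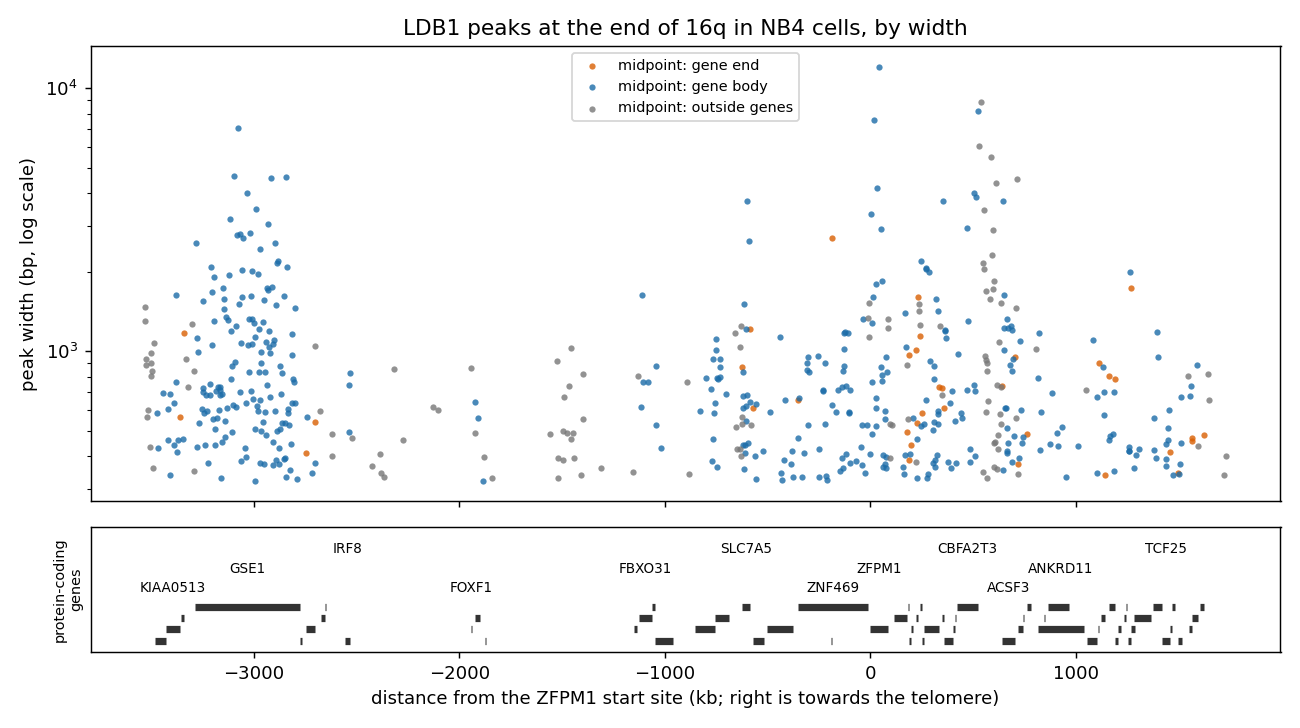
Each point is 1 of the 587 peaks, by distance of its midpoint from the ZFPM1 start site (kb) and by width (bp, log scale), coloured by whether the midpoint lay within 1 kb of a protein-coding gene end, in the rest of a gene body or outside genes, with protein-coding genes as bars underneath. Peaks stack up over GSE1, over ZFPM1 and from CBFA2T3 to ACSF3, and the space between IRF8 and FBXO31 is thinly filled with peaks of at most 1029 bp.

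Width is the only size measure in the list. The median width at the arm end was 652 bp (exact 95% interval 607 to 699 bp, quartiles 446.5 and 1051 bp), against 519.5 bp on the rest of chromosome 16 and 549 bp on the rest of the genome. Of the 587 peaks, 157 (26.7%, exact 95% interval 23.2 to 30.5%) were 1 kb or wider, where the share over all 52765 peaks of chromosomes 1 to 22 and X was 16.5%. Very wide peaks of 3 kb or more numbered 24, or 4.09% (2.64 to 6.02%). The share was 0.769% over all peaks and 0.311% (0.101 to 0.723%) on the rest of chromosome 16, which had 5 of them in 1610. All intervals cover counting error within this list only, and neighbouring peaks are not independent of each other. Among the widest peaks of the genome, 3 of the first 10 and 9 of the first 100 lay at the arm end.

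**Figure D2:**
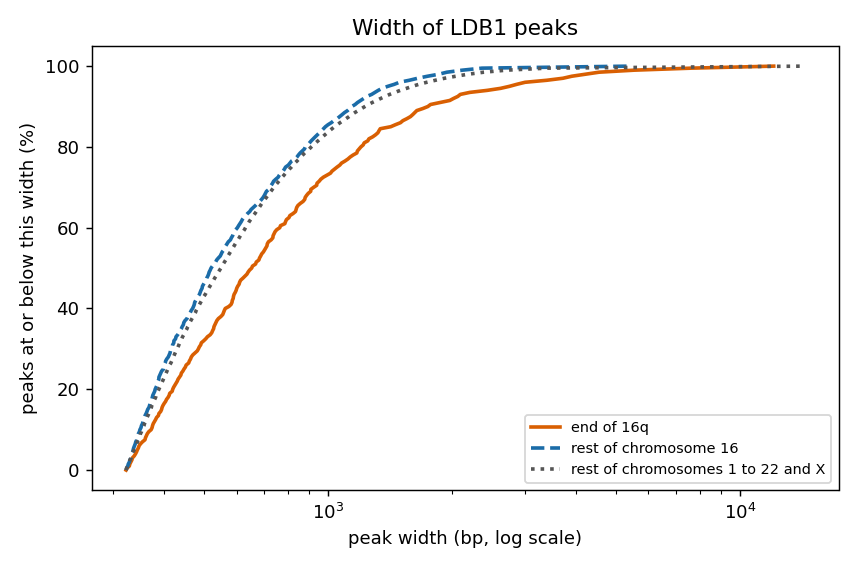
The share of peaks at or below each width (bp, log scale) is drawn for the end of 16q (587 peaks), the rest of chromosome 16 (1610 peaks) and the rest of chromosomes 1 to 22 and X (52178 peaks). The curve of the arm end lies to the right of the others, with medians of 652, 519.5 and 549 bp in that order.

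The widest peak, 12089 bp at chr16:88488893-88500981, lay inside ZFPM1. It was followed by 8884 bp at chr16:88988708-88997591, with its midpoint 15.9 kb outside CBFA2T3. The next, 8234 bp at chr16:88971380-88979613, crossed the end of CBFA2T3 where the annotated gene begins. A peak of 7590 bp lay in ZFPM1 and one of 7073 bp in GSE1. None of these 5 covered one of the start-site windows. Of the 24 peaks of 3 kb or more, 4 covered a start-site window of any gene and 1 held an end of a protein-coding gene. Of all 587 peaks at the arm end, 30 (5.11%) covered such a window and 13 held such an end.

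Gene ends made up a smaller share of the peaks at the arm end than elsewhere, although gene-end peaks per gene were not fewer. Gene-body peaks per gene were more numerous. There were 0.515 gene-end peaks per protein-coding gene at the arm end, against 0.331 on the rest of chromosome 16 and 0.394 on the rest of the genome, and 6.25 body peaks per gene, against 1.16 and 1.27. GSE1 alone gave 149 body peaks and 0 at gene ends. A midpoint lay within 1 kb of an end of a protein-coding gene for 35 peaks, 5.96% (4.19 to 8.20%), where the share over all peaks was 14.9% and that on the rest of chromosome 16 was 16.1% (14.4 to 18.0%). The rest of gene bodies held 425 peaks, 72.4% (68.6 to 76.0%) at the arm end against 48.5% (48.0 to 48.9%) on the rest of the genome. Outside genes lay 127, or 21.6% (18.4 to 25.2%), against 36.5% (36.1 to 36.9%). The median width was 607 bp at gene ends, 651 bp in gene bodies and 669 bp outside genes. The share at gene ends was also the lower of the 2 with ends of genes of all biotypes, 13.3% at the arm end against 23.1% on the rest of the genome, and with a distance of 2500 bp, 12.1% against 23.6%.

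Promoters were covered about as often as elsewhere. Of the 54 protein-coding genes of the arm end with a start-site window, 15 (27.8%, 16.5 to 41.6%) had a peak over a window, and the share over the genome was 28.0%. Over genes of all kinds, 35 of 143 windows lay under a peak (24.5%), where all windows gave 20.2%. Covered windows had a median G+C of 68.7% and 24 CpG, and the uncovered ones 65.0% and 16. E-box words were in 17 of the 35 covered windows (48.6%) and in 53 of the 108 others (49.1%), and in 43.9% of covered windows and 43.7% of all windows in the genome. GATA words were in 6 of 35 (17.1%) and 18 of 108 (16.7%), against 13.3% of covered windows and 24.9% of all windows in the genome. The ETS word was in 6 of 35 (17.1%) and 16 of 108 (14.8%), against 13.0% of covered windows and 10.3% of all. RUNX words were in 1 of 35 and 5 of 108, against 4.57% of covered windows and 5.88% of all. A word is a match of letters and not a site.

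Several covered starts belonged to genes that begin back to back. A peak of 1745 bp at chr16:89720202-89721946 covered the starts of VPS9D1 and of ZNF276, a zinc finger gene, and the ZNF276 window shown carries the ETS word. One of 581 bp covered the starts of RNF166, a ubiquitin ligase gene, and of CTU2, a tRNA-modifying enzyme gene. One of 485 bp covered those of ZNF778 and its divergent transcript. The start of SLC7A5 lay under a peak of 1216 bp, that of ACSF3 under one of 738 bp and that of PRDM7 under one of 481 bp.

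The peaks gathered in a few long clusters. With peaks 10 kb or less apart joined, 441 of the 587 (75.1%, 71.4 to 78.6%) lay in 21 clusters of at least 5 peaks, where 36.6% of all peaks did. The 6 clusters of at least 20 peaks held 322 peaks, 54.9%, where 8.84% of all peaks lay in such clusters. GSE1 carried 144 peaks in 1 cluster of 461 kb (chr16:85202284-85663484), which ranked 2 in the genome by number of peaks. The next held 71 peaks over 244 kb, from CBFA2T3 over ACSF3 and CDH15 to SLC22A31 (chr16:88953372-89197683), and ranked 10. The third held 37 peaks over 130 kb at ZFPM1 (chr16:88427472-88557633). SLC7A5 had a cluster of 26, and 23 and 21 lay over PIEZO1 and its neighbours. Peaks in the 6 large clusters had a median width of 745.5 bp, those in groups of 2 to 4 of 527 bp and the 39 lone peaks of 485 bp. All 24 peaks of 3 kb or more were in the large clusters.

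Windows of 500 kb show the same unevenness. At least 40 peaks lay in 7 of the 11 windows that lie wholly at the arm end, where 4.33% of the 6071 windows of the genome held as many and the median window held 4. The window from 85.0 to 85.5 Mb held 114 peaks and ranked 10 among all windows, and the one from 88.5 to 89.0 Mb held 98 and ranked 17. The window from 86.0 to 86.5 Mb held 8. A further window crosses the boundary and held 49 peaks, 15 of them at the arm end.

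**Figure D3:**
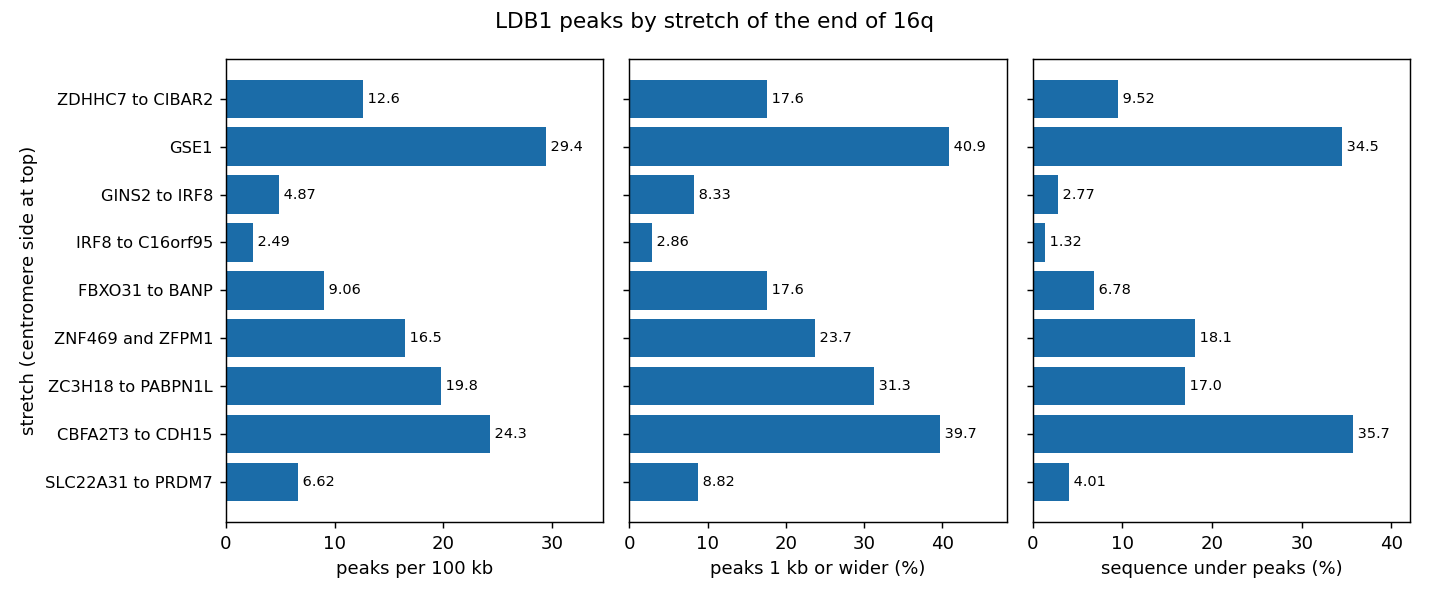
The arm end is cut at gene ends into 9 stretches (centromere side at the top), with bars for peaks per 100 kb, the share of peaks 1 kb or wider (%) and the share of sequence under peaks (%). GSE1 and the stretch from CBFA2T3 to CDH15 stand highest on all 3 measures, with 34.5% and 35.7% of their sequence under peaks, and the stretch from IRF8 to C16orf95 is lowest with 1.32%.

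The stretches were laid out after the peaks had been seen. The first, from the boundary to CIBAR2, held 34 peaks in 270 kb (12.6 per 100 kb), 18 of them outside genes. Of these, 13 formed a cluster on the centromere side of ZDHHC7, a palmitoyltransferase gene, and ran over LINC02176. KIAA0513 held 10 peaks with the widest at 1640 bp.

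GSE1 had the most peaks of any gene of the arm, although ZFPM1, SLC7A5 and ACSF3 had more per 100 kb among those of 20 kb or more. Its body of 507 kb (chr16:85169512-85676200, plus strand) held 149 peak midpoints, more than any other of the 19974 protein-coding genes. Per 100 kb it had 29.4, which ranked 119 among the 10991 protein-coding genes of 20 kb or more. Its rank by density was thus lower than its rank by count. Peaks covered 34.5% of the gene, 61 of them (40.9%) were 1 kb or wider and 8 were 3 kb or wider. The median width was 783 bp and the median space between neighbours 1515.5 bp.

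The GSE1 peaks ran along nearly the whole gene. Counted in steps of 50 kb from its start, the 10 full steps held 11, 13, 16, 13, 13, 16, 21, 18, 16 and 12 peaks, and the remainder, from 500 to 507 kb, held 0. The median width per step was highest between 200 and 250 kb, 1510 bp, where the peak of 7073 bp lies (chr16:85372867-85379939). The RefSeq start-site window of GSE1 lies 444 kb into the annotated gene. Before it lay 135 of the 149 peaks, with a median width of 833 bp, and after it 14, with a median of 636 bp. The peak of 4586 bp that covers this start (chr16:85610062-85614647) had its midpoint 0.968 kb from it. Of the 8 peaks of 3 kb or more, the other 7 lay farther before the start, with midpoints from -276.7 to -76.5 kb relative to it.

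Past GSE1 the peaks thinned out. From GINS2 to IRF8 there were 12 in 246 kb, with a median width of 514.5 bp. GINS2, a subunit of the replicative helicase, and COX4I1, a subunit of cytochrome c oxidase, had none within 10 kb, and EMC8 had 1 outside its body. C16orf74 had 4 in its body with the widest at 565 bp. A peak of 537 bp covered 147 bases of its start-site window but not the start itself.

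IRF8, the interferon regulatory factor of monocytes and dendritic cells, carried 4 narrow peaks, all after its start. They were 748 bp at chr16:85915035-85915782, 492 bp at chr16:85918338-85918829, 830 bp at chr16:85919513-85920342 and 468 bp at chr16:85931345-85931812. The first 3 lay in the gene, 12.6, 15.8 and 17.1 kb after the start site, and the last lay 28.7 kb after it. Neither of the 2 start-site windows of IRF8 was covered. The nearest peak before the start ended 66.1 kb away, and no peak lay between 29.0 and 123 kb after it. With 12.8 peaks per 100 kb the gene ranked 881 by density among the 10991 protein-coding genes of 20 kb or more. GSE1 ranked 119 and ZFPM1 ranked 84.

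The stretch from IRF8 to C16orf95 was the emptiest, with 35 peaks in 1404 kb (2.49 per 100 kb). It held 1 peak of 1 kb or more, of 1029 bp. The longest space without a peak, 280 kb (chr16:86613683-86894053), lay here past FOXL1 and held 5 non-coding genes and no protein-coding one, and the next 3 in size (157, 155 and 143 kb) were also in this stretch. The forkhead genes FOXF1, FOXC2 and FOXL1, which encode factors of mesenchyme and vessel development, lie here together. With 10 kb to either side their 93.0 kb held 6 peaks with a median of 524 bp. All 3 genes had a peak within 10 kb and FOXC2 had the only one inside a body, of 323 bp, which is the smallest width on chromosomes 1 to 22 and X. The widest near them, 864 bp at chr16:86508691-86509554, covered the start of FENDRR, the long non-coding RNA that starts next to FOXF1.

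From FBXO31 to BANP the peaks returned, 68 in 750 kb. FBXO31, an F-box ubiquitin ligase gene, had 4 peaks in its body and BANP, which encodes a nuclear matrix protein, had 9, with the widest at 1644 and 1131 bp. JPH3 and KLHDC4, which lie end to end, had 8 and 9 and shared a cluster of 14. MAP1LC3B, the autophagy gene of LC3B, had 2 within 10 kb and none inside.

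SLC7A5 was the most densely marked of these genes. It encodes LAT1, the transporter that brings large neutral amino acids into the cell. Its 39.5 kb (chr16:87830023-87869507, minus strand) held 18 midpoints, 45.6 per 100 kb, which ranked 5 among the 10991 genes of 20 kb or more. Peaks covered 44.4% of the gene. The widest were 3721 bp at chr16:87853536-87857256 and 2636 bp at chr16:87860741-87863376, with midpoints 14.1 and 7.45 kb after the start. A further 1216 bp lay on the start itself. CA5A, a carbonic anhydrase gene next to it, had 4 peaks of at most 632 bp.

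ZNF469 and ZFPM1 shared a stretch of 460 kb with 76 peaks. ZNF469, a zinc finger gene, held 45 in 340 kb with the widest at 2698 bp, and 13.2 per 100 kb.

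ZFPM1 had the most of its sequence under peaks among the arm's genes of 20 kb or more, 55.6% of 85.3 kb (chr16:88451769-88537031, plus strand). It held 27 midpoints, 31.7 per 100 kb, which ranked 84 by density, and its median width was 769 bp. The 5 widest held 63.5% of the peak sequence with midpoints in the gene. They lay after the start site, with midpoints at 1.99 kb (3338 bp), 19.5 kb (7590 bp), 33.0 kb (4161 bp), 41.7 kb (12089 bp) and 51.3 kb (2920 bp). The wide peaks thus sat inside the gene, and the start site itself lay under no peak. The peak of 409 bp ended before the start site and covered 154 bases of its window. Just before the gene lay a peak of 1530 bp, with its midpoint 4.97 kb outside it.

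**Figure D4:**
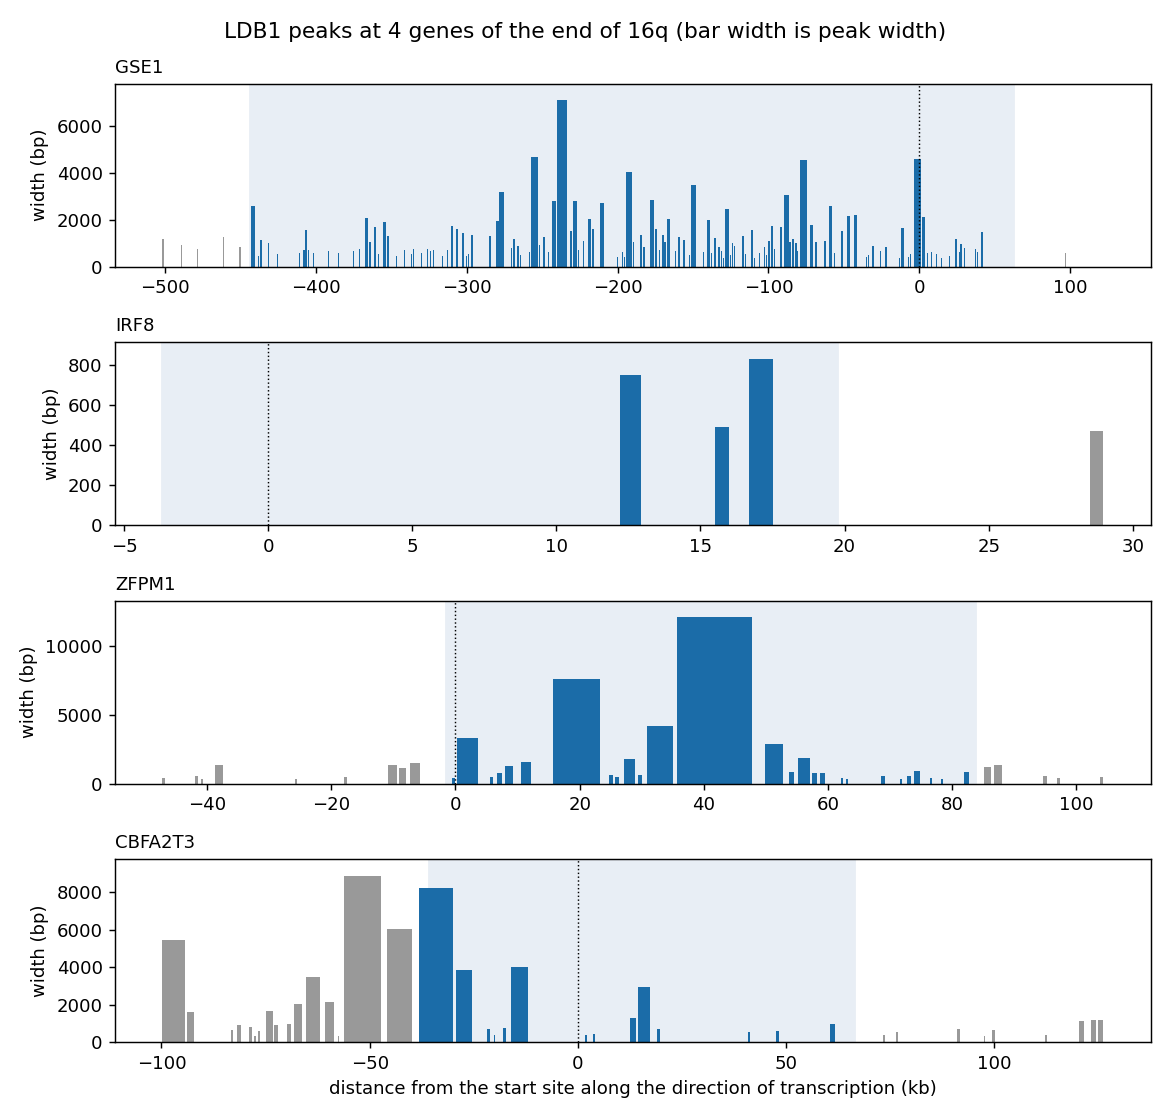
Peaks at GSE1, IRF8, ZFPM1 and CBFA2T3 are drawn by distance from the start site along the direction of transcription (kb), with height and drawn width both giving peak width (bp); shading is the gene, blue bars have their midpoint in it, grey ones outside, and the scales differ between panels. GSE1 is marked along nearly its whole length before the start site, IRF8 has 4 peaks of at most 830 bp after it, the widest ZFPM1 peaks lie after it, and those of CBFA2T3 lie before it and beyond the gene.

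From ZC3H18 to PABPN1L the genes lie close and so did the peaks, with 67 in 338 kb and 12 of them at gene ends. PIEZO1, a mechanosensitive ion channel gene, had 20 peaks in its 69.9 kb (28.6 per 100 kb, rank 136), with the widest at 2069 bp. CDT1, which licenses replication origins, had 1 peak of 3728 bp (chr16:88804709-88808436) that covered 68.2% of the gene, and 49 bases of its start-site window lay under another of 727 bp. APRT and GALNS, a purine salvage and a lysosomal sulfatase gene, had 1 and 7. CYBA, whose product anchors the oxidase of phagocytes, held 1 of 408 bp, and IL17C had 1 of 971 bp. SNAI3, a Snail family repressor gene, held 4, up to 1616 bp, and MVD, an enzyme of the mevalonate pathway, had 2.

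CBFA2T3 carried its wide peaks on the far side of the RefSeq start-site window. The gene spans 102 kb (chr16:88874858-88977207, minus strand), and the start site lies 35.9 kb from the end where the annotated gene begins. The 6 peaks between that end and the start site had a median of 2297.5 bp, and the 8 after the start site had a median of 648 bp. Those before it were led by 8234 bp over the end where the annotated gene begins, 4015 bp at chr16:88953372-88957386 and 3852 bp at chr16:88966891-88970742. After the start site the widest was 2948 bp at chr16:88924059-88927006, which covered the start of LOC105371409 shown among the sequences. The start-site window itself lay under none, and the nearest peak, 381 bp, had its midpoint 1.87 kb away. With 14 midpoints, 13.7 per 100 kb, the gene ranked 781 by density among the 10991 protein-coding genes of 20 kb or more.

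The wide peaks ran on beyond CBFA2T3. The 117 kb between it and ACSF3 (chr16:88977208-89093851) hold no other protein-coding gene and held 33 peaks with a median of 927 bp, 15 of them 1 kb or wider and 5 of them 3 kb or wider. Peaks covered 49.6% of this sequence, against 22.9% of CBFA2T3 and 31.9% of ACSF3. The peaks of 6041 and 8884 bp had their midpoints 6.91 and 15.9 kb from CBFA2T3. Of the starts shown among the sequences, LOC105371411, with 2 E-box words, lay under a peak of 4381 bp in this interval, and LINC02138, with its repeats, lay under one of 4518 bp past ACSF3. ACSF3, which encodes a mitochondrial malonyl-CoA synthetase, had 21 midpoints (33.7 per 100 kb, rank 61), the widest of 3718 bp at chr16:89095725-89099442, and CDH15, a muscle cadherin gene, had 4.

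From SLC22A31 to the last gene the peaks were few and narrow, with 68 in 1027 kb and a median of 479.5 bp. ANKRD11, a chromatin regulator gene of 223 kb, had 11 peaks, 4.93 per 100 kb, the widest of 1174 bp. FANCA, a DNA repair gene, had 2 of at most 424 bp, TCF25 had 7, DEF8 had 4 and TUBB3, a tubulin gene, had 1. RPL13, a ribosomal protein gene, had 1 of 907 bp, and DPEP1, a dipeptidase gene, had 6. CDK10, SPATA33 and LOC124903757 had none within 10 kb. VPS9D1 had the widest of this stretch, 2006 bp. The last 2 peaks (340 and 401 bp, up to 90185736) lay at FAM157C and the pseudogene CICP25 and past them.

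**Figure D5:**
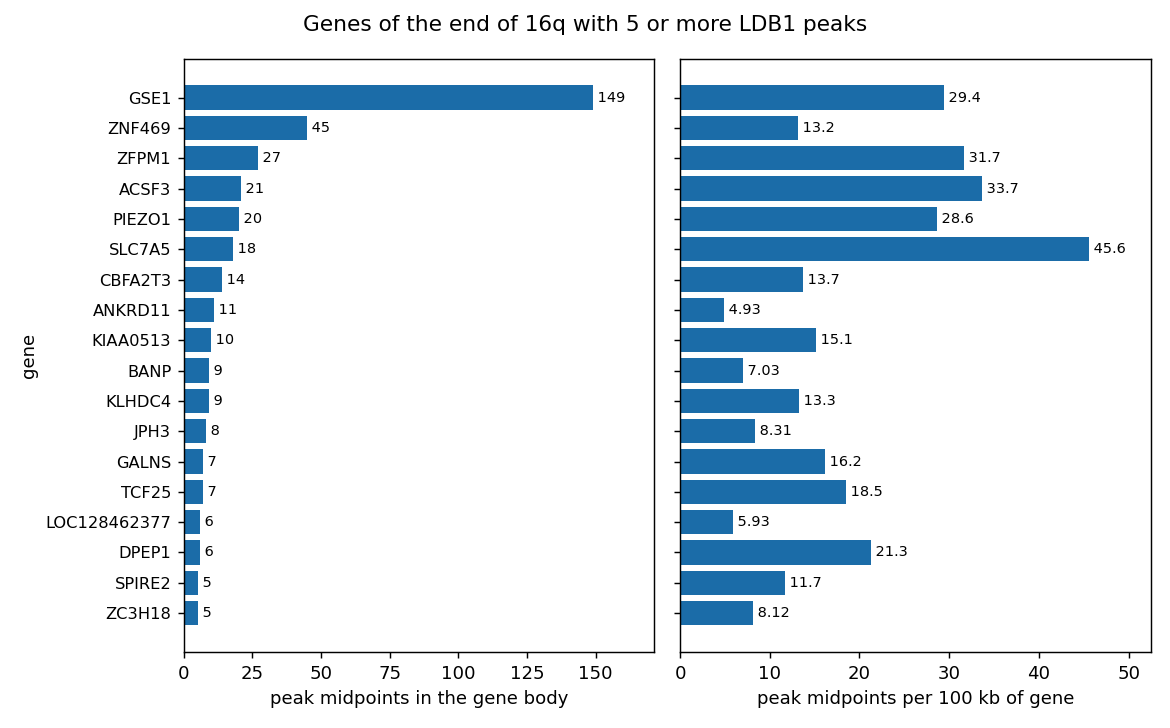
The 18 protein-coding genes of the arm end with 5 or more peak midpoints in the body are ordered by that count (left), with the midpoints per 100 kb of gene beside it (right). GSE1 leads by count with 149, while SLC7A5 leads these genes per 100 kb with 45.6, before ACSF3 with 33.7.

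Counted by gene, 62 of the 68 protein-coding genes that start at the arm end (91.2%, 81.8 to 96.7%) had a peak in the body or within 10 kb, where 70.1% of all protein-coding genes did, with a median of 5 peaks a gene at the arm end, against 1 for genes elsewhere. A midpoint lay inside 50 of the 68 (73.5%, 61.4 to 83.5%), where 54.5% of all genes held one, and 9 held at least 10 (13.2%), where 2.69% did. The median gene of the arm end was not longer, 19.4 kb against 24.2 kb on the rest of the genome. The 9 genes with at least 10 midpoints were longer than that, from 39.5 kb (SLC7A5) to 507 kb (GSE1). These counts were not adjusted for gene length. Neighbouring genes share peaks, so these genes are not independent of each other.

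By role, all 6 transcription factor and cofactor genes listed (IRF8, ZFPM1, CBFA2T3, GSE1, BANP and SNAI3) had a midpoint in the body. Their median with 10 kb to either side was 13 peaks, with 4, 32, 16, 151, 9 and 10 in that order. Counts were not adjusted for gene length. In that order these genes span 23.4, 85.3, 102, 507, 128 and 8.82 kb, where the median gene of the arm end spans 19.4 kb. Per 100 kb of gene they had 12.8, 31.7, 13.7, 29.4, 7.03 and 45.4 midpoints. The share over all protein-coding genes with a midpoint in the body was 54.5%, as a measure for these small groups. A start-site window was covered in 2 of the 5 that have one, GSE1 and ZFPM1, where 28.0% of all genes with a window had one covered. Of 7 metabolism and transport genes 6 had a midpoint in the body (all but COX4I1), with a median of 7 within 10 kb. Of 4 genes loosely grouped under chromatin 3 did (ANKRD11, ZNF469, a zinc finger gene, and ZC3H18, an RNA-processing protein gene), with a median of 10.5. Of 5 replication and repair genes 3 did (CDT1, FANCA and CHMP1A), with a median of 3, although CHMP1A is better known for membrane remodelling, and of the 3 forkhead genes 1 did, with a median of 1. Both phagocyte and immune genes, CYBA and IL17C, did. Across the 68 genes the median was 5, and whether any group differs from it was not tested.

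Non-coding genes of the arm were also covered. A peak touched 32 of its 88 long non-coding RNA genes, where 26.6% of those in the genome were touched, and 13 of the 32 lay clear of protein-coding genes. ZFPM1-AS1 held 7 midpoints, LOC124903738 and SNAI3-AS1 held 6 each and LINC02176 held 4. A peak touched 5 of the 8 microRNA genes, where 9.79% of those in the genome were touched. All 8 lie inside protein-coding genes, so they share their hosts' peaks. MIR6774 lies whole under the 492 bp peak of IRF8, MIR11401 under the 3721 bp peak of SLC7A5, and the 7590 bp peak of ZFPM1 begins inside MIR5189. MIR12128 and MIR5093 lie at the edges of GSE1 peaks of 1558 and 1581 bp, with their mature sequences outside. The 4 mature sequences that a peak reached, that of MIR5189 in part, are shown, from RefSeq (GRCh38.p14), with the seed (bases 2 to 8) in capitals. No seed is shared among them, and the peak list does not show whether these RNAs are made.
hsa-miR-6774-5p: aCUUGGGCaggagggacccuguaug
hsa-miR-6774-3p: uCGUGUCCcucuuguccacag
hsa-miR-11401: uCACGUCUgcggcugucacg
hsa-miR-5189-3p: uGCCAACCgucagagcccaga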

How the data were processed

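The deposited file gave the chromosome, start, end and width in bp of each LDB1 peak, per the file headers, as a plain list with no score. Widths equalled end minus start plus 1 in all 53742 rows, so positions count from 1. The submitters' processing notes name hg38, Bowtie2 2.4.1 and MACS2 2.0.10. For parameters, threshold, duplicate handling and any use of the IgG library as control, the sources used here give nothing. Depth is unknown. Peaks on chromosomes 1 to 22 and X (52765) formed the genome set. Genes and start-site windows came from RefSeq tables of GRCh38.p14, and overlapping windows on opposite strands were reverse complements in all 152 pairs of chromosome 16. Midpoints within 1 kb of a protein-coding gene end counted as gene ends. A cluster joins peaks that lie at most 10 kb apart. Exact intervals are Clopper-Pearson at 95%. The median's interval uses order statistics. Analyses used Python 3.11.15, pandas 2.3.3 and scipy 1.17.1, and the counting functions were tested on simulated data. The region, the gene lists and the rule for named genes (a list of 49 genes along the arm, of which 47 matched by symbol as protein-coding, the genes of the 15 widest peaks, the 10 genes with the most peaks, and those at the 5 largest clusters and 3 longest spaces) were chosen with earlier results of these data known. Other genes, the stretches, the repeated-word measure and the ZFPM1 and CBFA2T3 windows were picked with the values in view.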

Additional observations from a re-analysis of the deposited data

How the results depend on the processing

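Of 26 alternatives to the 8 main values, 13 left the value inside its interval or within 1.5 times the count. The 587 peaks became 364 with the widest 50% of all peaks and 216 with the widest 25%. Fewer peaks are kept by construction, and how many depends on width. The median width was 652 bp at the arm end and 549 bp on the rest of the genome. Joining peaks 1 kb or less apart gave a median width of 767 bp and 14.1% of peaks at 3 kb or more, against 574 bp and 3.40% on the rest of the genome. The share at gene ends was 3.24% within 500 bp, against 9.94% on the rest of the genome, 12.1% within 2500 bp and 13.3% with genes of all biotypes. The share of genes with a peak was 73.5% with the gene body only, where 54.5% of all protein-coding genes held one. It was 100% with 50 kb and 76.5% with the widest 50% of peaks. The genome shares with 50 kb and with the widest 50% were not computed, so these values show no trait of the arm end. In the same order of settings, the median over the named genes was 3, 15 and 3 peaks in place of 5. Peaks of CBFA2T3 numbered 34 with 50 kb and 14 in the body. Moving the boundary by 500 kb either way gave 625 and 491 peaks. No paired analysis was possible because there is 1 library per antibody. Without replicates no library could be left out, and without heights a stricter threshold could only be set on width.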
